A study of Mus musculus with 12 samples.

Results

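The S100 calcium-binding proteins are described here in mouse bone marrow macrophages through 8 members: S100a1, S100a4, S100a6, S100a8, S100a9, S100a10, S100a11 and S100a13. A member was taken from every probe set whose only annotated gene symbol was its own and which had a deposited signal in all 6 groups. By that rule 7 of the 8 members were found, on 10 probe sets, among 18193 genes that had such a probe set on the array. S100a11 lies only on a probe set annotated with 3 symbols, so no value is given for it. Of the 7, S100a1, S100a4, S100a6, S100a8, S100a10 and S100a13 passed the filter on low signal and were tested, and S100a9 did not pass.

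Macrophages of wild-type (WT) mice or of mice with kinase-dead IRAK4 (KD) were compared on 12 one-colour Affymetrix arrays. IRAK4 is a kinase of the MyD88 pathway that Toll-like receptors use, and LPS is the bacterial outer membrane component sensed by Toll-like receptor 4. Each strain had 3 conditions with 2 biological replicates each: 4 h without LPS, 1 h with LPS and 4 h with LPS, at 1 µg/ml. All cells grew in serum-containing medium with L-929 cell conditioned medium, and the labels name neither the background strain nor the age of the mice. The unstimulated cultures ran for 4 h, so the comparison of 1 h of LPS with no LPS also differs in culture time. The labels do not tie replicates to separate animals, so the p-values are not shown to measure the spread between mice. They rest on the spread of arrays within groups, pooled over the 6 groups and drawn towards that of probe sets of similar signal.

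S100 proteins are small EF-hand proteins that mostly form dimers and expose a binding surface for a target protein when calcium binds. S100A8 and S100A9 form calprotectin, a heterodimer known from neutrophils, monocytes and inflamed macrophages, which binds metal ions and, once released, acts on Toll-like receptor 4 and on RAGE, the product of Ager. Among the others, S100A10 is calcium-insensitive and joins annexin A2, S100A4 binds non-muscle myosin, S100A6 binds the protein encoded by Cacybp, S100A11 binds annexin A1, and S100A13 takes part in the release of FGF1 and interleukin-1α. S100A1 is best known from heart and skeletal muscle.

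All 8 members lie on chromosome 3. S100a8 and S100a9 are direct neighbours with 0 protein-coding genes between them, as are S100a1 with S100a13 and S100a11 with S100a10. Between S100a9 and S100a11 lie 56 protein-coding genes. RefSeq promoter windows of 300 bases, from 250 before to 50 after the annotated start, were found for 7 of the 8 members on build GRCm38.p6, and S100a10 was the member not matched. The windows of S100a8, S100a9 and S100a4 are printed because S100a8 and S100a4 stayed higher in KD without LPS on leaving out any 1 array and S100a9 encodes the partner of S100a8. S100a8 spans chr3:90668821-90669120 on the plus strand, S100a9 spans chr3:90695672-90695971 on the minus strand and S100a4 spans chr3:90603520-90603819 on the plus strand. Capitals mark matches to the motifs searched.
S100a8: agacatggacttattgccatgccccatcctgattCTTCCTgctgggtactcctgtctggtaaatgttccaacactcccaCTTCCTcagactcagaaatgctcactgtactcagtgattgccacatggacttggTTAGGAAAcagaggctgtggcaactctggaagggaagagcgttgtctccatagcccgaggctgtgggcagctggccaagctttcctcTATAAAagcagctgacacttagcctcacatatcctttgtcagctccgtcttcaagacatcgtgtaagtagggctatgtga
S100a9: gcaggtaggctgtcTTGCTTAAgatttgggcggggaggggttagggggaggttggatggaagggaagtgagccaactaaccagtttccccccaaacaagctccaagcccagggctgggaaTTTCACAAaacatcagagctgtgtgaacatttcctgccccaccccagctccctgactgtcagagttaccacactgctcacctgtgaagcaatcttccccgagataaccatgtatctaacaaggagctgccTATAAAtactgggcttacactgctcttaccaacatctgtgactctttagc
S100a4: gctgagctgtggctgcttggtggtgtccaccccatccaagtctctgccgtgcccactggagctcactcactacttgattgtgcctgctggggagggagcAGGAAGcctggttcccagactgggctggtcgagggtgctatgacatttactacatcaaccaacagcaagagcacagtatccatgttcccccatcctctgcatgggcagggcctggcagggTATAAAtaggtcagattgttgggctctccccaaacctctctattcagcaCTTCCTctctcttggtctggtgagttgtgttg

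The motifs were searched on both strands with no mismatch. They were a TATA box (TATAAA), the C/EBP core (TTNCNNAA), the AP-1 site (TGANTCA), the ETS core AGGAAG bound by PU.1, and the NF-κB consensus by its name. The S100a8 window held a TATA box beginning 30 bases before the start, a C/EBP match at 117 bases before it and ETS matches at 216 and 171. The S100a9 window held C/EBP matches at 236 and 130 bases before the start and TATAAA at the annotated start itself. The S100a4 window held a TATA box at 31 bases before the start, an ETS match at 151 and another 18 bases after the start. S100a11 had AP-1 matches at 136 and 38 bases before its start, and the windows of S100a1, S100a6 and S100a13 held no match to any of these motifs. The windows of S100a1 and S100a13 share 204 bases on opposite strands. Over all 32851 RefSeq windows of this length, 13.6% held TATAAA, 40.7% the C/EBP core, 7.80% the AP-1 site, 35.4% the ETS core and 8.50% the NF-κB consensus. A match is a string of letters and not a measured binding site, and the motifs do not overlap each other in the windows printed.

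S100a8, the calprotectin subunit, was higher in KD than in WT macrophages in every condition and passed no test of a change with LPS in either strain. Without LPS its signal was 768.9 and 742 on the WT arrays and 1761.2 and 1945.6 on the KD arrays. After 1 h of LPS it was 867.9 and 816.9 in WT and 1888.3 and 2390.2 in KD, and after 4 h it was 742 and 902.4 in WT and 1900.7 and 1689.7 in KD. All 6 KD arrays lay above all 6 WT arrays, with a gap between the highest WT value of 902.4 and the lowest KD value of 1689.7.

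On the log2 scale the difference in S100a8, KD minus WT, was 1.29 ± 0.12 (SE) without LPS, which is 2.44-fold (limma adjusted p = 7.27e-06). At 1 h of LPS it was 1.33 ± 0.12, or 2.52-fold (adjusted p = 6.81e-06), and at 4 h 1.13 ± 0.12, or 2.18-fold (adjusted p = 1.08e-05). Each adjusted p comes from limma, by the Benjamini-Hochberg method over all 27931 tested probe sets, and log2 values are of the signal plus 4.4. A probe set is said to have risen or fallen, or to be higher or lower, where this adjusted p was under 0.05. In the order of group means, the KD groups at 2139 (LPS 1 h), 1853 (no LPS) and 1795 (LPS 4 h) came before the WT groups at 842.4 (LPS 1 h), 822.2 (LPS 4 h) and 755.4 (no LPS). Within each strain no neighbouring groups in that order differed by the test, and the step from KD at 4 h to WT at 1 h was the gap between the strains.

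**Figure D1:**
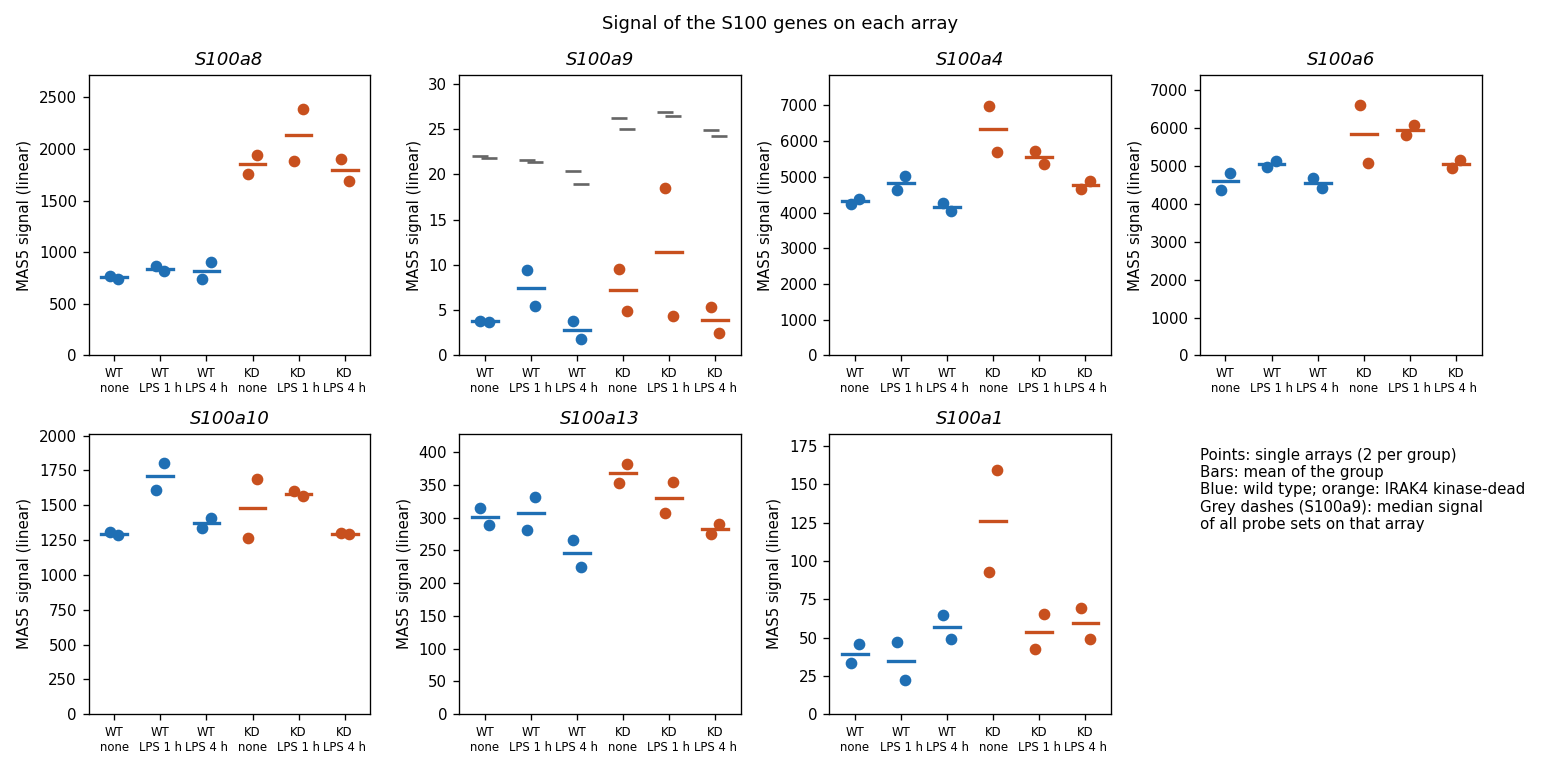
Deposited MAS5 signal (linear axis from 0) of the 7 measured S100 genes on each of the 12 arrays, WT in blue and KD in orange, with points for arrays and bars for group means of 2 arrays. The 6 KD arrays of S100a8 lie between 1689.7 and 2390.2, above all WT arrays, and S100a9 stays under the median of its array (grey dashes) throughout.

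The LPS response of S100a8 was small in both strains. In WT it was 0.16 at 1 h (95% interval -0.10 to 0.41) and 0.12 at 4 h (-0.14 to 0.37). In KD it was 0.20 at 1 h (-0.06 to 0.45) and -0.05 at 4 h (-0.30 to 0.21). The difference between the strains' responses, KD minus WT, was 0.04 at 1 h (-0.32 to 0.40) and -0.16 at 4 h (-0.52 to 0.20), with adjusted p of 0.959 and 0.734. The intervals of the interactions are wide and do not show that the responses were alike. S100a8 was read by 1 probe set, of the kind marked as matching more than 1 transcript, and its value may hold signal of a related transcript.

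S100a9, the other calprotectin subunit, gave a signal under the median of its array on all 12 arrays. Without LPS its signal was 3.8 and 3.7 in WT and 9.5 and 4.9 in KD. With 1 h of LPS it was 9.4 and 5.5 in WT and 18.5 and 4.4 in KD, and with 4 h 3.8 and 1.8 in WT and 5.3 and 2.5 in KD. Array medians ranged from 18.9 to 26.9, and the spread between the replicates of KD at 1 h (11.4 ± 9.97, SD, n = 2) was as large as the values themselves. The gene was therefore not tested with the others. In a fit without the filter its KD minus WT differences were 0.48 ± 0.56 without LPS, 0.28 ± 0.56 at 1 h and 0.20 ± 0.56 at 4 h, with adjusted p of 0.799, 0.915 and 0.932. A signal at this level gives no order between the strains and does not show that the transcript is absent.

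Without LPS, 4 of the 6 tested members were higher in KD than in WT and 0 were lower. In that comparison 5.25% of all tested probe sets were called and 2.37% were called higher in KD. The members' median log2 difference was 0.44, against 0.03 over all tested probe sets. The members were chosen with earlier results of these data known, so these counts are not a test of the members against all probe sets. With 1 h of LPS, 1 of the 6 was called, where 1.11% of all probe sets were called and 0.573% were called higher, and with 4 h 1 of 6, where 5.37% were called and 3.13% were called higher. The member called at both times was S100a8. The KD minus WT differences at 1 h and 4 h use other arrays than the one without LPS, so S100a8 was higher in 3 sets of arrays that do not overlap. These sets share the fit's estimate of the spread, and the labels do not say whether they share animals. At an unadjusted p under 0.05, 3 members passed at 1 h and 2 at 4 h.

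**Figure D2:**
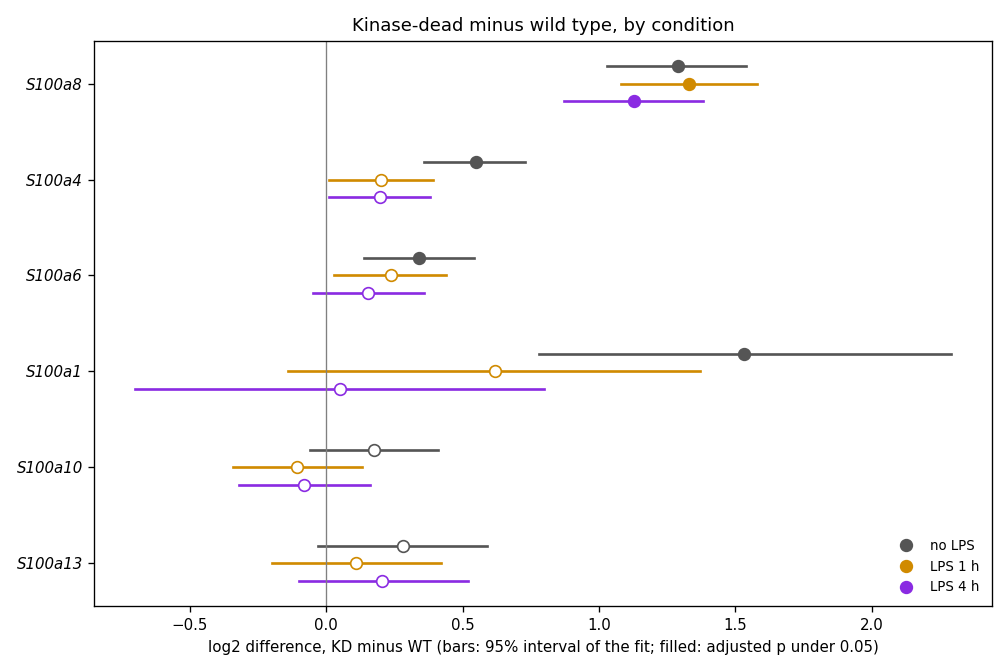
Log2 difference, KD minus WT, of the 6 tested S100 genes without LPS and at 1 h and 4 h of LPS, with 95% intervals of the fit and filled points where the adjusted p was under 0.05. S100a8 lies between 1.13 and 1.33 in all 3 conditions, and S100a4, S100a6 and S100a1 have filled points without LPS alone.

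S100a4, which binds non-muscle myosin and is known from migrating cells, was higher in KD without LPS. Its signal was 4248.4 and 4375.6 in WT and 6993.5 and 5684.6 in KD, and the groups did not overlap. The difference was 0.55 ± 0.09, or 1.46-fold (limma adjusted p = 0.00123). After 1 h of LPS the signal was 4616.7 and 5030.3 in WT and 5724.9 and 5361.7 in KD, and after 4 h 4279.5 and 4046.5 in WT and 4649 and 4889.1 in KD. The groups did not overlap at these times either, but the differences of 0.20 at both times had adjusted p of 0.357 and 0.249. With each array scaled to a common median, these differences were -0.11 at 1 h and -0.13 at 4 h, of opposite sign. With so few arrays per group, non-overlap can arise by chance. For this and the other members it is a description and not a test. In KD cells S100a4 fell by 0.40 ± 0.09 between no LPS and 4 h of LPS, or 1.32-fold (adjusted p = 0.00536), while in WT the same comparison gave -0.05 (95% interval -0.24 to 0.14). The difference between these responses was -0.35 (-0.62 to -0.09), with an adjusted p of 0.162, so the fall is not shown to differ between the strains.

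S100a6, or calcyclin, followed S100a4 across the arrays. Without LPS its signal was 4361.6 and 4818.4 in WT and 6618.4 and 5080.8 in KD. The groups did not overlap, but the lower KD array was close to the higher WT array. The difference of 0.34 ± 0.10, or 1.26-fold, had a limma adjusted p of 0.049, just under the threshold. It was lost on leaving out any 1 of 11 of the 12 arrays, with values from 0.15 without KD unstimulated replicate 1 to 0.41 without WT unstimulated replicate 2. The exception was KD unstimulated replicate 2, without which it was 0.53 (adjusted p = 0.00239). With 1 h of LPS the signal was 4972.5 and 5133.6 in WT and 5819.4 and 6091 in KD, and with 4 h 4674.2 and 4410.9 in WT and 4940.1 and 5160.2 in KD. The log2 differences of 0.24 and 0.15 did not pass the test. No LPS response of S100a6 was called, the largest being -0.20 in KD at 4 h (-0.40 to 0.00).

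The highest signals of S100a4 and S100a6 were both on KD unstimulated replicate 1, the array on which 3' control probe sets stood highest over 5' ones. Its log2 ratios were 1.35 for Gapdh and 3.04 for Actb, against 0.81 to 1.17 and 2.22 to 2.85 on the other 11 arrays, and the part of this in the results was not tested. Without that array, S100a8 differed by 1.36 and S100a1 by 1.91 without LPS, both still called, and S100a4 stayed called in each of 12 fits with an array left out. The fall of S100a4 in KD at 4 h became -0.25 (adjusted p = 0.0789) without that array. It also missed the threshold without KD 4 h replicate 1, at -0.37 (adjusted p = 0.0748).

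S100a1 was read by 2 tested probe sets that did not give the same picture. On the set specific to 1 transcript the signal without LPS was 33.7 and 45.5 in WT and 92.7 and 159.6 in KD, a difference of 1.53 ± 0.36, or 2.89-fold (limma adjusted p = 0.0169). The KD replicates differed widely from each other, and the difference was lost without WT unstimulated replicate 1 (1.34, adjusted p = 0.194) or without KD unstimulated replicate 2 (1.16, adjusted p = 0.188). On the other set, marked as matching more than 1 transcript, the signal was 438.1 and 461.4 in WT and 685.4 and 741.3 in KD, a difference of 0.66 ± 0.12 (adjusted p = 0.00383). Both sets were thus higher in KD without LPS.

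With LPS the pair of S100a1 probe sets parted. On the specific set the KD signals were 42.6 and 65.2 at 1 h and 69.5 and 49.2 at 4 h, and the WT signals 47.1 and 22.6 at 1 h and 64.8 and 49 at 4 h, so that the strains overlapped at both times. On the other set they were 525.3 and 518.5 in KD and 357.5 and 355.4 in WT at 1 h, and 457.8 and 468.7 in KD and 314.3 and 374.9 in WT at 4 h, and the strains did not overlap. There the strain difference was 0.54 at 1 h (adjusted p = 0.0372) and 0.43 at 4 h (adjusted p = 0.0501). That set also fell with LPS, by 0.39 in WT at 4 h (adjusted p = 0.037), by 0.45 in KD at 1 h (adjusted p = 0.0388) and by 0.62 in KD at 4 h (adjusted p = 0.00233). On the specific set the same changes were 0.48, -1.14 and -1.0, with adjusted p of 0.437, 0.0757 and 0.0916.

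S100a10, the annexin A2 partner, passed no test between the strains on the deposited scale. Its signal without LPS was 1304.8 and 1288.1 in WT and 1268.3 and 1689.5 in KD, and these overlapped. The KD minus WT difference was 0.17 without LPS (-0.06 to 0.41), -0.11 at 1 h (-0.34 to 0.13) and -0.08 at 4 h (-0.32 to 0.16). Without KD unstimulated replicate 1 the first came to 0.38 and was called (adjusted p = 0.0498). In WT it rose after 1 h of LPS, to 1611.8 and 1804.5, by 0.39 ± 0.11 or 1.31-fold (limma adjusted p = 0.0448), and at 4 h it was 1337.3 and 1405.2. In KD the signals were 1602.4 and 1564.5 at 1 h and 1298 and 1294.1 at 4 h. At 1 h and 4 h these lay below both WT signals without overlap, though neither strain difference was called. The change in KD at 1 h was 0.11 (-0.12 to 0.35). The difference between the responses at 1 h was -0.28 (-0.62 to 0.05), with an adjusted p of 0.564. The call in WT was kept in 3 of the 12 fits with an array left out, over which the change ran from 0.31 without WT 1 h replicate 2 to 0.48 without WT 1 h replicate 1.

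S100a10 had 2 further probe sets. The set marked as open to cross-hybridisation ranged from 2868.5 to 3609.1 over the 12 arrays and gave 0.25 ± 0.08 in WT at 1 h (adjusted p = 0.0692). It fell by 0.25 between 1 h and 4 h of LPS in WT (adjusted p = 0.0353), where the first set gave -0.31 (adjusted p = 0.0692). The last set was above the array median on 2 of 12 arrays, from 7 to 49.8. S100a13, which takes part in the release of FGF1 and interleukin-1α, had signals of 315.2 and 288 in WT and 353.3 and 381.5 in KD without LPS. The groups did not overlap, but the difference of 0.28 (-0.03 to 0.59) had an adjusted p of 0.346. At 1 h its signal was 281.3 and 331.6 in WT and 306.8 and 354.3 in KD, and at 4 h 265.3 and 225.3 in WT and 275.6 and 289.7 in KD. No change of S100a13 was called in any of the 11 comparisons, and its largest was -0.37 in KD at 4 h of LPS (-0.68 to -0.06, adjusted p = 0.133).

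**Figure D3:**
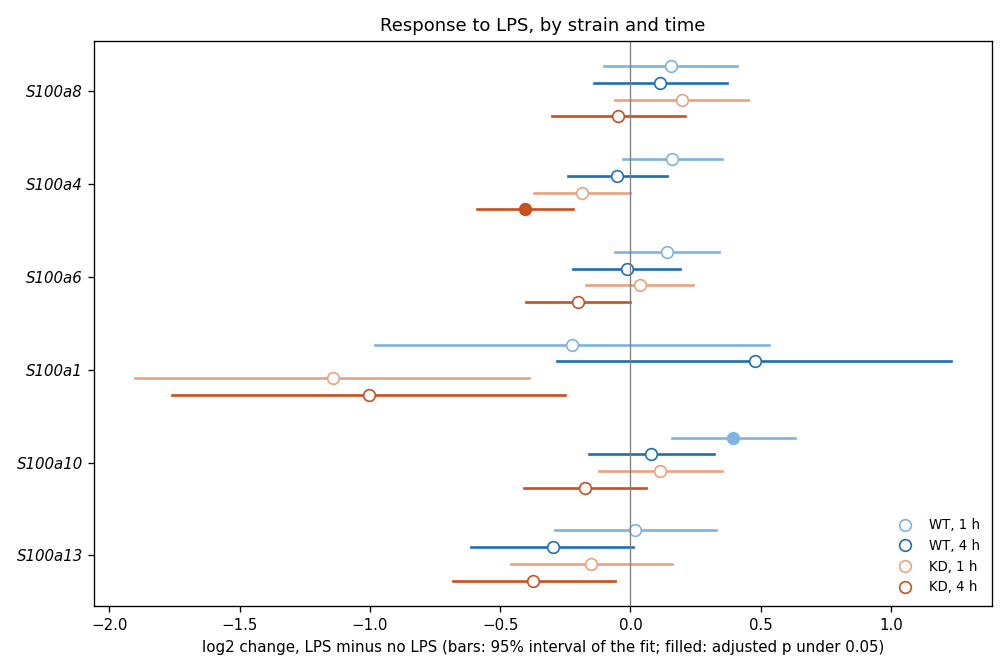
Log2 change with LPS against no LPS of the 6 tested S100 genes in WT (blues) and KD (oranges) at 1 h and 4 h, with 95% intervals of the fit and filled points where the adjusted p was under 0.05. The filled points are S100a10 in WT at 1 h (0.39) and S100a4 in KD at 4 h (-0.40).

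Few members passed the test of an LPS response, and over 6 members the counts cannot be set apart from the shares of all probe sets. In WT, 1 of 6 tested members rose and 0 fell at 1 h, where 6.12% of all tested probe sets were called. At 4 h 0 of 6 were called by limma, where 17.1% of all were, and 0 of 6 had an unadjusted p under 0.05. Between 1 h and 4 h of LPS in WT 0 of 6 were called, where 15.8% of all were, with 3 of 6 at an unadjusted p under 0.05. In KD, 0 of 6 were called at 1 h, where 5.47% were, with 1 at an unadjusted p under 0.05. At 4 h 1 of 6 fell, where 10% of all probe sets were called. Between 1 h and 4 h in KD 0 of 6 were called by limma, where 8.43% were, with 3 at an unadjusted p under 0.05. Their median change from 1 h to 4 h was -0.18 in WT and -0.23 in KD, against -0.08 and -0.05 over all tested probe sets.

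The test of the difference between the strains' responses called 0 of 6 members at 1 h, where 0.326% of all probe sets were called, and 0 of 6 at 4 h, where 3.07% were. At an unadjusted p under 0.05 limma gave 1 member at 1 h and 2 at 4 h. All 6 members had a negative value at 4 h, with a median of -0.22 against 0.07 over all probe sets. These values share the unstimulated arrays with the strain difference without LPS, which was positive for all 6. The lowest was that of S100a1, at -1.48 ± 0.51 (adjusted p = 0.14).

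**Figure D4:**
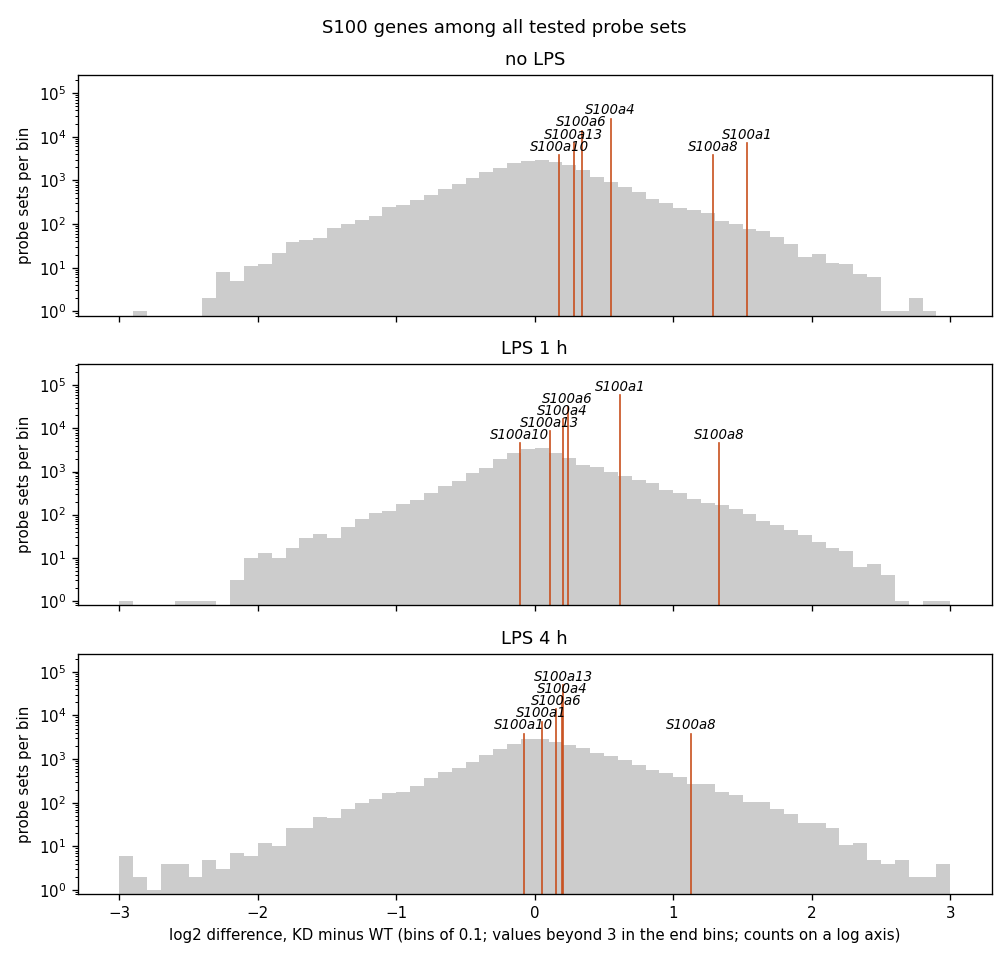
Number of tested probe sets by log2 difference, KD minus WT, in bins of 0.1 (log count axis), without LPS and at 1 h and 4 h of LPS, with the 6 S100 genes as orange lines whose height has no meaning. S100a8 lies at percentile 98.0, 97.7 and 95.5 of the differences. At 4 h all the other tested members lie between percentile 32.6 (S100a10) and 61.1 (S100a13).

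Level and scaling bear on small strain differences in these arrays. At a common trimmed mean of 150.0, the median of a WT array lay between 18.9 and 22.0 and that of a KD array between 24.2 and 26.9, and Spearman's correlation between replicates was 0.879 to 0.913. With each array scaled to a common median, the median log2 difference over all probe sets moved from 0.03 to -0.18 without LPS, from 0.05 to -0.25 at 1 h and from 0.08 to -0.22 at 4 h. The calls higher in KD then went from 662 of 1465 to 181 of 2686 without LPS, from 160 of 309 to 141 of 3685 at 1 h and from 873 of 1500 to 397 of 4522 at 4 h. Under that scaling S100a8 was still called higher in KD in all 3 conditions, by 1.06, 1.02 and 0.81. S100a4 was called without LPS at 0.32 but had the opposite sign at 1 h (-0.11) and 4 h (-0.13). The S100a6 difference without LPS came to 0.11 and was not called. S100a10 was called lower in KD under that scaling at 1 h (-0.42, adjusted p = 0.0324) and 4 h (-0.40, adjusted p = 0.0331), with -0.05 without LPS.

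The genes whose log2 signal was closest to that of S100a8 over the 12 arrays, by Pearson's r, were Ifi27l2a (0.977), an interferon-inducible gene, Cd52 (0.956), a small surface glycoprotein, and Folr2 (0.953), a folate receptor of macrophages. They were highest in KD too. Ifi27l2a ranged from 1170.6 to 1479.6 in WT and from 2250.1 to 2787.4 in KD, Cd52 from 1821.8 to 2179.8 and from 2684.8 to 3058, and Folr2 from 589.4 to 802.1 and from 1471.7 to 1881.7. In none of the 3 did a WT array reach a KD array. They were picked for likeness to S100a8, which itself parted the strains, so this separation largely follows from the choice. The points share strain, condition and array scaling, and the values are a description without a test.

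**Figure D5:**
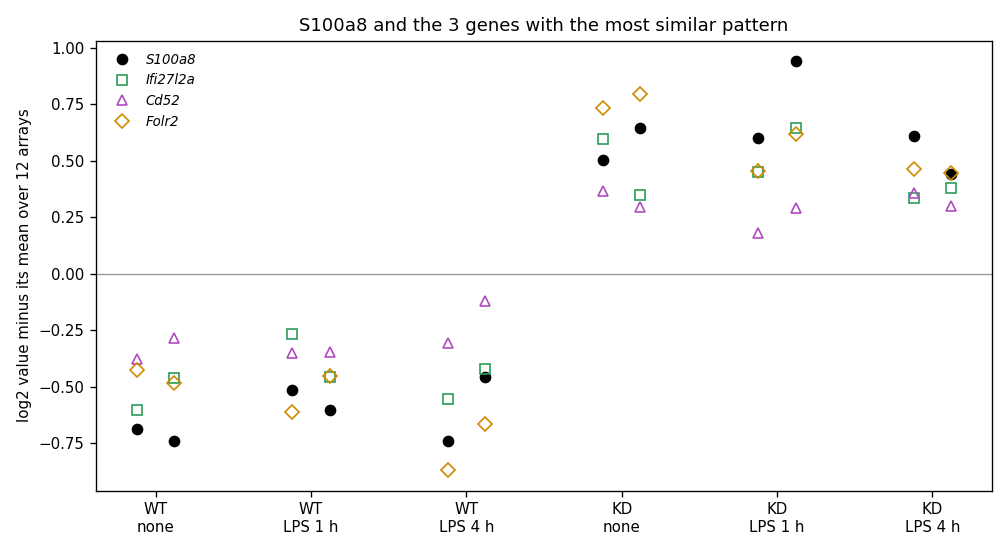
Log2 signal minus its mean over 12 arrays for S100a8 and the 3 genes with the highest Pearson correlation to it, with 1 point per array and gene, by group. For all 4 genes the 6 KD arrays lie above the 6 WT arrays, which choosing genes by likeness to S100a8 favours.

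Among the members, S100a4 and S100a6 were most alike over the 12 arrays (r = 0.91), followed by S100a4 with S100a13 (0.75) and S100a6 with S100a8 (0.70). S100a10 was least like the others, from -0.10 with S100a1 to 0.38 with S100a13. S100a4 and S100a6 also shared neighbours: Akr1a1, an aldehyde reductase, had r = 0.954 with each, and Sh3bgrl3 had 0.946 with S100a4 and 0.954 with S100a6. Closest to S100a10 was Tgif1 (0.91), closest to S100a13 was the adaptor gene Grb2 (0.956) and closest to S100a1 was Zfp637 (0.888). In the window of 32 genes around the cluster of 6 members, the 10 other tested genes had 0 calls between the strains in any condition. Of all tested probe sets, 5.25% were called without LPS, 1.11% at 1 h and 5.37% at 4 h. Over 10 genes the counts of 0 cannot be set apart from these shares. Of the 10, S100a16 lies inside the cluster, Lor beyond S100a9 and the rest before S100a1.

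Of 16 listed partners and receptors of S100 proteins, 15 were measured and tested. Without LPS 2 were higher in KD and 0 lower, where 5.25% of all tested probe sets were called. The median difference was 0.18 against 0.03 over all probe sets. The 2 called were Anxa2, the partner of S100A10, at 2969 ± 5.80 in WT and 3827 ± 13.2 in KD (SD, n = 2), a difference of 0.37 ± 0.07 (limma adjusted p = 0.0071), and Anxa1, at 0.45 ± 0.11 (adjusted p = 0.0202). With 1 h of LPS 1 of 15 was lower and 0 higher, where 1.11% of all probe sets were called. The 1 called was Il1a, which encodes interleukin-1α, at 213.7 ± 7.92 in WT and 50.5 ± 12.2 in KD, a difference of -2.01 ± 0.44 (adjusted p = 0.0324). At 4 h Il1a was lower by 3.97 ± 0.44 in KD and Tlr4, the LPS receptor gene, was higher by 0.50 ± 0.10, where 5.37% of all probe sets were called.

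Of 10 listed regulators of S100a8 and S100a9, 9 were tested, and 1 was higher in KD without LPS, where 5.25% of all probe sets were called. The 1 called was Cebpa, a myeloid transcription factor, at 1151 ± 150 in WT and 1843 ± 265 in KD (SD, n = 2), a difference of 0.68 ± 0.12 (limma adjusted p = 0.00314). At 1 h of LPS 0 of 9 were called between the strains, where 1.11% of all were, and Cebpa differed by 0.02. At 4 h 2 were higher and 2 lower, where 5.37% of all were called. Cebpa was again higher, at 482 in WT and 831 in KD (0.78 ± 0.12, limma adjusted p = 0.000638), and so was the receptor gene Il6ra (0.89 ± 0.18). Il6 (-4.11 ± 0.35) and Il10 (-2.44 ± 0.51) were lower. Cebpb, a C/EBP factor of the inflammatory response, rose with LPS in WT by 1.55 at 1 h and 1.82 at 4 h, and in KD by 1.05 and 1.33. Cebpa changed with LPS by -0.20 in WT at 1 h, which was not called. It fell in WT at 4 h (-1.25 ± 0.12), in KD at 1 h (-0.85 ± 0.12) and in KD at 4 h (-1.14 ± 0.12). The difference between the strains' responses of Cebpa was -0.66 at 1 h (limma adjusted p = 0.12) and 0.11 at 4 h (adjusted p = 0.844). That test called 0 of 9 regulators at 1 h, where 0.326% of all were called. At 4 h it called 1, Il6, where 3.07% were. The responses of Cebpa and Cebpb are thus not shown to differ between the strains. S100a8 did not pass the test of a change with LPS, and a link between it and these regulators was not tested. Of 15 other S100 family and related genes, 11 were measured and 3 tested, and 0 were called between the strains, too few to set against the shares of all probe sets. Among the 3 tested was S100pbp, which encodes an S100P-binding protein and is not itself an S100 protein, at 453.5 ± 9.19 in WT and 426.7 ± 15.7 in KD without LPS.

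S100a8 is also a marker of neutrophils and their precursors, so the other markers of that lineage were set beside it. In bulk RNA, more cells of a type and more RNA per cell cannot be told apart. Of 13 listed neutrophil genes 10 were measured and 4 tested, and 0 of 4 were called between the strains in any condition. Of all tested probe sets, 5.25% were called without LPS, 1.11% at 1 h and 5.37% at 4 h. Mpo, Ngp, Ctsg and Cxcr2 were under the array median on all 12 arrays. The summed signal of the 10 was 557.2 to 627.8 in WT and 643.3 to 694.7 in KD without LPS, 648.7 to 828.8 and 607.4 to 656.8 at 1 h, and 486 to 560.5 and 479.7 to 493.5 at 4 h. Most of it came from Mmp8, which differed by 0.26 without LPS and was not called. The median difference of the 4 tested genes, KD minus WT, was -0.26 without LPS, -0.44 at 1 h and -0.28 at 4 h. Over all tested probe sets it was 0.03, 0.05 and 0.08. The part of this lineage in the S100a8 difference was not tested.

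Monocytes express S100a8 too. Of 5 listed monocyte genes 2 were measured, Cx3cr1 and Ccr2, and Cx3cr1 alone was tested. Ccr2 was under the array median on all 12 arrays. The sum of the pair was 11.8 to 16.6 in WT and 48.2 to 51.7 in KD without LPS. It was 13.6 to 15.6 and 46.7 to 67.9 at 1 h, and 7.5 to 29 and 29.7 to 52 at 4 h. These low sums did not overlap between the strains, though at 4 h only narrowly. The 5 T and NK cell genes, all under the array median on all 12 arrays, were untested. Their sum parted likewise without LPS (12.4 to 17.5 in WT, 35.8 to 41.4 in KD) and at 4 h (9.6 to 11.2, 35 to 37.7). At 1 h it overlapped (17.6 to 34, 28.7 to 43.6). Cx3cr1, a chemokine receptor gene, was above the array median on 6 of 12 arrays and differed by 1.99 ± 0.73 without LPS, 2.43 ± 0.73 at 1 h and 0.96 ± 0.73 at 4 h, KD minus WT. Limma called none of these (adjusted p of 0.135, 0.131 and 0.537), and the part of monocytes in the S100a8 difference was not tested.

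All 9 macrophage markers were tested, and Csf1r, Cd68 and Lyz2 were above the array median on all 12 arrays. Between the strains 5.25% of all tested probe sets were called without LPS, 1.11% at 1 h and 5.37% at 4 h. Without LPS 3 of the 9 were higher in KD and 1 lower, among them Lyz2, a lysozyme gene, at 0.50 ± 0.10, Csf1r, the receptor for macrophage colony-stimulating factor, at 0.44 ± 0.10 and the mannose receptor gene Mrc1 at -1.21 ± 0.14. The summed signal of the 9 was 18500 to 19070 on WT arrays and 21920 to 26230 on KD arrays without LPS, 20600 to 23470 and 23930 to 24040 at 1 h, and 20830 to 22460 and 20450 to 21920 at 4 h. Stromal markers went the other way: 6 of 11 were lower in KD without LPS and 0 higher, among them Postn (-2.20 ± 0.29) and Col3a1 (-1.67 ± 0.30), and their sum ran from 7333 to 7640 on WT arrays and from 4298 to 5112 on KD arrays. At 1 h 4 of the 11 were lower in KD and 1 higher, with sums of 7559 to 7617 on WT arrays and 5460 to 6659 on KD arrays. At 4 h 1 was lower and 2 higher, with sums of 6506 to 6847 and 7232 to 7308. These lists moved with the strain without LPS, as did S100a8, S100a4, S100a6 and S100a1, and their part in those differences was not tested.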

How the data were processed

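The authors deposited a linear signal intensity for each probe set and array, with MAS5 as the software per the submitters' processing notes, whose version is not given in the sources used here. RNA was labelled with the NuGEN Ovation protocol, per the labels' protocols. The 2% trimmed mean was 150.0 on every array, so values were used without rescaling. Of 45101 probe sets, 64 controls were left out, and 27931 above their array's median on at least 2 of 12 arrays were tested. Precision is limited by the number of arrays. Log2(signal + 4.4), with the 20th percentile as pseudocount, was fitted in limma 3.58.1 (R 4.3.3), giving each of 6 groups a mean, with a trended prior and Benjamini-Hochberg adjustment per comparison. The pseudocount understates changes of low signals. The fit was run on data simulated from its own estimates of the spread, which checks the code and not the p-values on these arrays.

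For each gene the brightest tested probe set stood in, those without a suffix for shared transcripts first, and its other probe sets are given where they part. All members were named, and from each list up to 3 called genes with the largest change per comparison, with fewer printed. The 4 h strain difference of Cebpa, its changes with LPS and their differences between the strains were added after their values were seen. Markers of monocytes, T and NK cells, B cells, dendritic cells, mast cells and basophils, and erythroid cells were also listed. Members and lists were chosen with earlier results of these data known. Same-numbered replicates did not deviate together (correlations from -0.07 to 0.04 over 15 pairs of groups, with 0 over 0.1), so numbers were not used as a block. Alternatives were quantile and common-median scaling, no and stricter filters, other pseudocounts, other variance priors, the compared arrays alone, a replicate block, another probe set and leaving out each array.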

Additional observations from a re-analysis of the deposited data

Results flagged for a closer look

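The LPS response at 4 h differed between the strains, by the interaction test, for 2 genes from the lists of S100 partners and regulators. For Il6 the KD response minus the WT response was -4.79 ± 0.50 (limma adjusted p = 6.06e-05), with an unstimulated signal of 0.75 ± 0.21 in WT (SD, n = 2). For Il1a it was -3.72 ± 0.63 (adjusted p = 0.00292). Among the 6 tested S100 members 0 passed the interaction test at 4 h, with 2 at an unadjusted p under 0.05.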

How the results depend on the processing

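S100a8 was higher in KD in all 3 conditions under the 11 alternative settings and the 12 fits with an array left out, except that a variance prior without a trend gave an adjusted p of 0.0529 at 1 h. Its difference ran from 1.06 to 1.36 without LPS, from 1.02 to 1.50 at 1 h and from 0.81 to 1.27 at 4 h. The higher S100a4 in KD without LPS ran from 0.29 to 0.70 and was lost without a trend, and the higher S100a6 was called in 4 of 11 settings, with 0.08 under quantile normalization. The replicate block, which the numbers do not warrant, kept the S100a8 values and lost S100a6 (0.34, adjusted p = 0.064), and the calls over all probe sets without LPS went from 1465 to 1362. Where a value changed below, the cause was not tested, except that another probe set was read for S100a1 under the stricter filter and under the choice of the highest mean, which also replaced that of S100a10.

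The 4 S100 members called higher in KD without LPS became 3, without S100a6, under quantile normalization, common-median scaling, no filter, a pseudocount of 1, the compared arrays alone and the replicate block. Counts of called S100 members that moved by over 1.5 times were these. Common-median scaling gave 0 in WT at 1 h, 2 between the strains at 1 h and at 4 h (S100a8 higher and S100a10 lower in KD), and 1 in the interaction at 4 h. Quantile normalization gave 1 in WT at 4 h, 2 from 1 h to 4 h in WT and 2 between the strains at 4 h. No filter gave 0 in WT at 1 h. The filter at the 75th percentile gave 1 in WT at 4 h, 1 from 1 h to 4 h in WT, 1 in KD at 1 h, and 2 each in KD at 4 h and between the strains at 1 h and 4 h. A pseudocount at the median gave 1 in KD at 1 h, and the compared arrays alone gave 1 from 1 h to 4 h in KD. Without a trend, 0 were called in WT at 1 h, in KD at 4 h and between the strains at 1 h, and 1 between the strains without LPS. Calls over all probe sets fell there too, from 1709 to 487 in WT at 1 h and from 2792 to 1326 in KD at 4 h. Between the strains they fell from 309 to 17 at 1 h and from 1465 to 69 without LPS. The probe set with the highest mean gave 0 in WT at 1 h, 1 in WT at 4 h and from 1 h to 4 h, 1 in KD at 1 h, and 2 in KD at 4 h and between the strains at 1 h. With an array left out the counts ran from 0 to 1 in WT at 1 h, 0 to 2 from 1 h to 4 h in WT, 0 to 1 in KD at 1 h, 0 to 2 in KD at 4 h and from 1 h to 4 h, 2 to 4 between the strains without LPS and 0 to 1 in the interaction at 4 h. The lowest count without LPS came without WT unstimulated replicate 1, which lost S100a1 and S100a6. Leaving out either unstimulated KD array gave the counts of 2 from 1 h to 4 h in each strain.

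Of 66 values of the members, 58 were not called, and 29 of these changed sign in at least 1 alternative. Under common-median scaling S100a4 and S100a6 came to 0.11 and 0.14 in WT at 4 h, S100a8 to 0.09 from 1 h to 4 h in WT and 0.01 in KD at 4 h, S100a6 to -0.02 in KD at 1 h and S100a10 to -0.05 between the strains without LPS. There the strain differences were -0.11 (S100a4), -0.08 (S100a6) and -0.20 (S100a13) at 1 h, and -0.25 (S100a1), -0.13 (S100a4), -0.17 (S100a6) and -0.11 (S100a13) at 4 h, and the S100a8 interaction at 1 h was -0.05. Under quantile normalization S100a6 was 0.00 in WT at 1 h, and 0.06 and 0.12 in the interactions at 1 h and 4 h, and S100a1 was -0.07 between the strains at 4 h. The other S100a1 probe set gave -0.38 in WT at 4 h, and -0.05 and -0.17 from 1 h to 4 h in WT and KD, under both choices that read it. That of S100a10 gave 0.00 in WT at 4 h and 0.04 between the strains at 4 h.

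With an array left out, the sign changed within these ranges. In WT at 1 h they were -0.69 to 0.24 (S100a1) and -0.10 to 0.14 (S100a13), in WT at 4 h -0.09 to 0.06 (S100a6) and -0.03 to 0.26 (S100a8), and from 1 h to 4 h in WT -0.18 to 0.10 (S100a8). In KD at 1 h they were -0.15 to 0.23 (S100a6) and -0.09 to 0.32 (S100a10), in KD at 4 h -0.13 to 0.04 (S100a8) and -0.38 to 0.03 (S100a10), and from 1 h to 4 h in KD -0.15 to 0.42 (S100a1). Between the strains they were -0.03 to 0.38 without LPS (S100a10), -0.01 to 0.23 at 1 h (S100a13) and -0.18 to 0.28 at 4 h (S100a1). In the interactions they were -0.29 to 0.09 (S100a6) and -0.13 to 0.21 (S100a8) at 1 h, and -0.38 to 0.00 (S100a6) and -0.19 to 0.04 (S100a13) at 4 h.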
